A study of Homo sapiens with 38 samples.

Results

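NPPB, POMC and GALP are 3 genes for precursors of peptide hormones, and each stood high under a different culture condition while human embryonic stem cells were turned into neural progenitors. They are 3 of the 58219 genes in a deposited expression table, chosen by their TPM in these same libraries, which set each of them apart in 1 group or a few. Those levels are therefore given as a description, with no test. All 3 passed the filter set before every test, namely 2 or more libraries that reach 1 TPM, which their high groups alone would have met. TPM is a length-corrected share of all transcripts in a library, so levels of different genes can be compared.

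Peptide hormones are made as long precursors that convertases cut inside the secretory pathway. NPPB encodes the precursor of B-type natriuretic peptide, which heart muscle cells release under stretch and which acts through NPR1, a receptor that makes cyclic GMP. POMC encodes the precursor of adrenocorticotropic hormone, the melanocyte-stimulating hormones and beta-endorphin, and is known from pituitary cells and from neurons of the hypothalamic arcuate nucleus. GALP encodes galanin-like peptide, a relative of galanin known in rodents from arcuate neurons and able to bind galanin receptors. None of these peptides is a usual marker of early neural progenitors.

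Poly(A) RNA was sequenced from H9, an established human embryonic stem cell line, labelled wild type in every library. The 19 groups, of 2 libraries each, are the undifferentiated cells of day 0 (D0 ESC) and 9 conditions sampled at day 4 (D4) and again at day 8 (D8). The conditions were IWP2 at 2.0 µM, an inhibitor of WNT secretion, then CT at 0.0, 0.4, 0.8, 1.0, 2.0, 3.0 and 4.0 µM. The last condition, written CT4.0RA, combined 4.0 µM CT with 1.0 µM RA (retinoic acid). CT is the WNT activator of the study, a name its labels do not expand. Libraries of a group are called biological replicates, with no word on whether each was a differentiation of its own. The p-values below then measure only how far such libraries differ, which may be technical. All values come from 1 line in bulk culture, where fewer cells of a type and less RNA per cell cannot be told apart.

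The D4 and D8 groups are labelled neural progenitor cells, and 10 progenitor markers were checked against that label. PAX6, a transcription factor of neuroectoderm, had 6.80 and 4.78 TPM in D8 CT3.0 and 1.29 and 1.78 TPM in D8 CT4.0, against 178 and 169 TPM in D8 CT2.0. SOX1, another factor of early neural cells, was under 0.5 TPM in all 4 libraries of D8 CT3.0 and D8 CT4.0, although 7 of the 10 markers, PAX6 among them, were at 1 TPM or more in both libraries of each group. The 10 summed to 459 to 461 TPM in D8 CT3.0 and 394 to 399 TPM in D8 CT4.0, against 1681 to 1721 TPM in D8 CT2.0 and 343 to 373 TPM in D0 ESC. Of the 38 libraries, 33 had their replicate as the most correlated library. Of the 5 that did not, 2 were the D8 CT0.0 libraries, where NPPB was highest and whose closest library was replicate 2 of D8 IWP2. The others came from D4 CT3.0 (both) and D8 CT4.0 (replicate 1). Ribosomal protein genes, 77 in all, took 17.1% to 39.1% of TPM, with the highest share in D8 CT4.0RA, the group in which POMC was highest.

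The coding sequences show what each precursor carries and which relatives could share its reads. All sequences are from GENCODE release 29 (hg38), with positions counted from the start of the coding sequence. NPPB (ENSG00000120937.8) lies at chr1:11857464-11858931 on the minus strand, with 3 exons and a coding length of 402 bases. POMC (ENSG00000115138.10) lies at chr2:25160853-25168903 on the minus strand, with up to 4 exons and 801 coding bases. GALP (ENSG00000197487.8) lies at chr19:56176020-56185775 on the plus strand, with up to 6 exons and 348 coding bases. No other annotated gene overlaps any of them.

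The part of NPPB that encodes the ring of B-type natriuretic peptide, bases 328 to 387, is shown because the ring is what the receptor binds. Capitals mark the codons of the 2 cysteines that close it, the only cysteine codons in the coding sequence.
NPPB: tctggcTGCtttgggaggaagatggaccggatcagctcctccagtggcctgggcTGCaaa
The stretch around the start of the mature peptide in GALP is shown beside the same stretch of galanin, bases 76 to 135 of both, with the 41 of 60 identical bases in capitals.
GALP: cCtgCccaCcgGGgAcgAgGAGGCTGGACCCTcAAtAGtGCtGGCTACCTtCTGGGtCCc
GAL: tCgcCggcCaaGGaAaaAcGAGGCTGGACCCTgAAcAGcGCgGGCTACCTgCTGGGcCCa

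POMC carries several hormones in 1 precursor. The core that melanocortin receptors bind is written 3 times in its coding sequence and the opioid core 1 time, each in capitals here with its surroundings. In order they belong to gamma-melanocyte-stimulating hormone (bases 229 to 264), to adrenocorticotropic hormone and alpha-melanocyte-stimulating hormone (415 to 450), to beta-melanocyte-stimulating hormone (661 to 696) and to beta-endorphin (697 to 732).
gamma: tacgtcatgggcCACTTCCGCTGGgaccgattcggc
adrenocorticotropic: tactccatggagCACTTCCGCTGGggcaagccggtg
beta: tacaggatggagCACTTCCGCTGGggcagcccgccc
endorphin: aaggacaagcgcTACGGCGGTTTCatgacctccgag

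Reads of these genes can be told from those of their relatives. Of all stretches of 31 bases in their annotated transcripts (664 in NPPB, 1590 in POMC and 937 in GALP), 0 occurred in a transcript of another gene. The longest identical run between transcripts was 13 bases for GALP and GAL, 9 for NPPB and NPPA, the atrial natriuretic peptide gene, and 13 for NPPB and NPPC, the C-type natriuretic peptide gene. POMC shared 16 bases with PDYN, 12 with PENK and 10 with PNOC, the other opioid precursor genes.

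**Figure D1:**
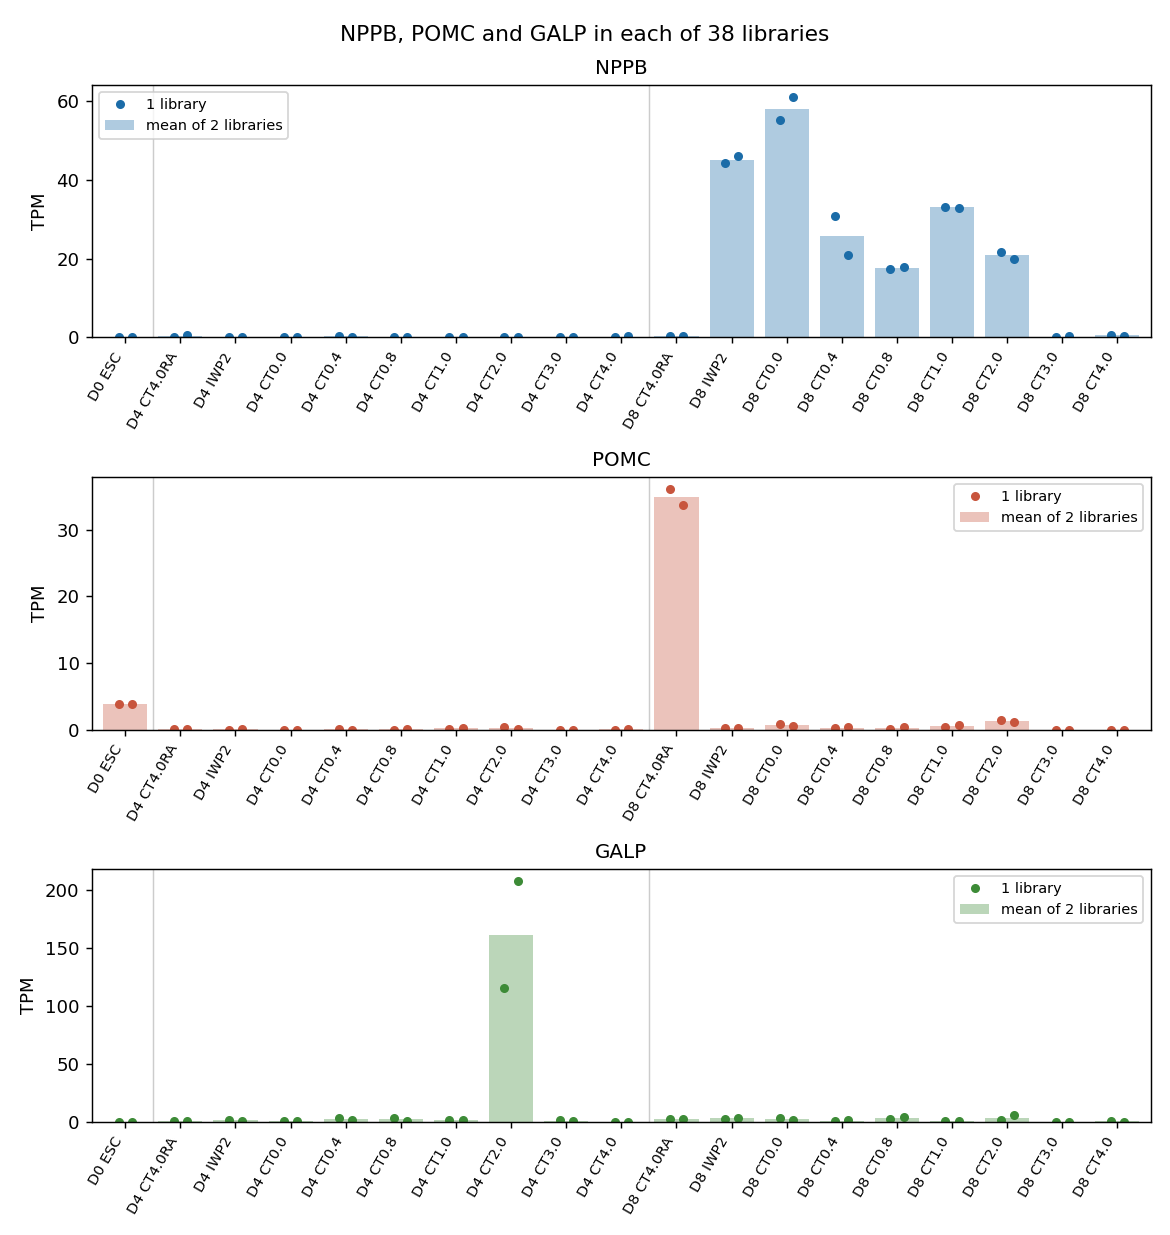
TPM of NPPB, POMC and GALP (y axis, linear and starting at 0) in each of 38 libraries, by group (x axis); points are libraries and bars are means of 2. NPPB stands at 17.5 to 61.1 TPM in 6 D8 groups and at most 0.611 TPM elsewhere, POMC at 36.1 and 33.8 TPM in D8 CT4.0RA, and GALP at 115 and 207 TPM in D4 CT2.0.

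NPPB stood high at day 8 in cultures given IWP2 or CT up to 2.0 µM. At day 8 it had 44.3 and 46.0 TPM with IWP2, 55.1 and 61.1 TPM at CT0.0, 30.7 and 21.0 TPM at CT0.4 and 17.5 and 18.0 TPM at CT0.8. It had 33.2 and 33.0 TPM at CT1.0 and 21.6 and 20.0 TPM at CT2.0. At the next doses it was near 0, at 0 and 0.314 TPM in D8 CT3.0 and 0.611 and 0.468 TPM in D8 CT4.0, and D8 CT4.0RA had 0.437 and 0.438 TPM. The highest of the 18 D4 libraries had 0.597 TPM, in CT4.0RA, 10 of the 18 were listed at 0, and D0 ESC had 0 and 0.172 TPM. All 12 libraries of the 6 high groups lay above all 26 others.

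Among the high groups the order of NPPB did not follow dose. D8 CT0.0 led at 58.1 ± 4.22 TPM, followed by IWP2 at 45.1 ± 1.21, CT1.0 at 33.1 ± 0.166, CT0.4 at 25.9 ± 6.86, CT2.0 at 20.8 ± 1.13 and CT0.8 at 17.7 ± 0.332 TPM (mean ± SD, n = 2 each). Libraries of CT0.4 and CT2.0 overlapped, and the other neighbours in this order did not. The lowest library of D8 CT0.0 stood 1.20 times above the highest library of any other group, so NPPB marks D8 CT0.0 less sharply than POMC and GALP mark theirs. The step between doses was D8 CT3.0 with 0.157 TPM against D8 CT2.0 with 20.8 TPM, a difference of -4.25 on the log2(TPM + 1) scale, and their libraries did not overlap. Between days, D8 CT0.0 stood at 58.1 TPM while both D4 CT0.0 libraries were listed at 0. The 18 canonical WNT targets of the gene lists summed to 161 to 169 TPM in D8 IWP2 and 170 to 191 TPM in D8 CT0.0. Their sum was 273 to 313 TPM in D8 CT0.8, 148 to 165 TPM in D8 CT1.0 and 197 to 220 TPM in D8 CT2.0. In D8 CT0.4, where NPPB was also high, it was 626 to 890 TPM. Where NPPB was near 0 at day 8, it was 574 to 689 TPM (CT3.0), 970 to 976 TPM (CT4.0) and 344.5 to 371 TPM (CT4.0RA). The part of WNT signalling in the level of NPPB was not tested.

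The genes whose levels followed NPPB most closely include a known partner of it in heart muscle. Likeness was measured as Pearson's r over the 19 group means on the log2(TPM + 1) scale, among 12796 protein-coding genes that reached a group mean of 5 TPM. The points share the fixed TPM total, and r is given as a description, with no test. ANKRD1, a stress-responsive repressor of heart and skeletal muscle that is also a target of the YAP coactivator, came first with r = 0.986. It was followed by ANXA1, which encodes the phospholipid-binding protein annexin A1, with 0.964. GPRASP2, which encodes a sorting protein for G-protein-coupled receptors, had 0.928 and DENND5B had 0.926.

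ANKRD1 had 51.3 and 45.5 TPM in D8 IWP2, 29.2 and 41.9 TPM in D8 CT0.0 and 17.6 and 15.8 TPM in D8 CT2.0, against 0.0759 and 0.0782 TPM in D8 CT3.0. ANXA1 shared the same 6 groups but led in D8 CT0.4, with 75.6 and 81.2 TPM, where NPPB had 30.7 and 21.0 TPM. GPRASP2 was present everywhere, between 14.1 and 50.8 TPM, so its likeness rests on a modest difference in level. In ranks over the same 19 means the likeness was weaker, with Spearman's rho of 0.596 for ANKRD1, 0.564 for ANXA1 and 0.874 for GPRASP2, and 13 of the groups had NPPB at or near 0.

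**Figure D2:**
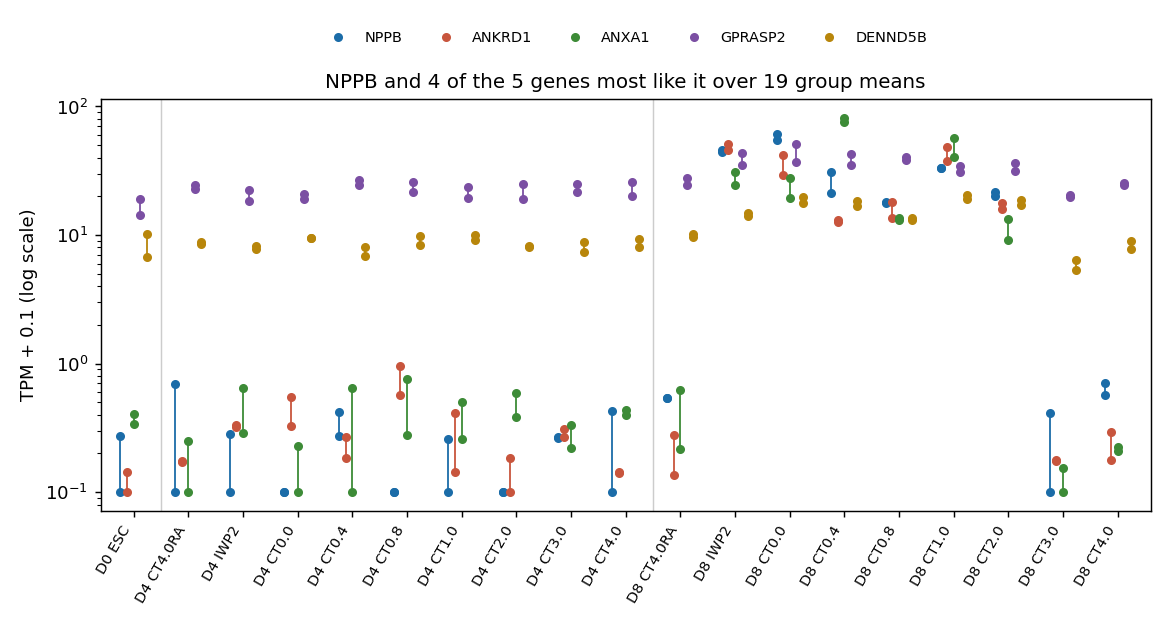
TPM + 0.1 on a log axis of NPPB and 4 of the 5 genes most like it, in each group; the 2 points joined by a line are the 2 libraries. NPPB, ANKRD1 and ANXA1 stand at 9.09 TPM or more in the 6 D8 groups from IWP2 to CT2.0 and under 1 TPM elsewhere, while GPRASP2 and DENND5B are present in all 19 groups.

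Published regulators of NPPB and stretch-response genes were compared between days at CT0.0 and CT2.0 and between the doses on either side of the drop in NPPB. A gene was called when its adjusted p (limma, Benjamini-Hochberg over all 28221 genes tested) was under 0.05 and its log2 change at least 1. In D8 CT0.0 against D4 CT0.0, 5 of the 11 regulators and stretch-response genes tested rose and 0 fell, where 5.78% of all genes were called (4.11% higher and 1.67% lower). Their median log2 change was 0.645, against 0.0149 over all genes. ANKRD1 averaged 35.5 ± 8.93 TPM in D8 CT0.0 and 0.340 ± 0.160 TPM in D4 CT0.0, a log2 change of 4.75 ± 0.19 (SE, limma, adjusted p = 1e-13). ANKRD1 was also the gene most like NPPB (r = 0.986), and the comparisons were chosen for where NPPB was high. Its calls here and below follow from that likeness and are no separate evidence, though the counts of this list include them.

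Also higher in D8 CT0.0 were 3 genes that respond to cell tension. CCN1, a secreted matricellular protein and target of YAP, averaged 69.8 TPM in D8 CT0.0 and 15.9 TPM in D4 CT0.0, and its relative CCN2 averaged 74.3 TPM in D8 CT0.0 and 22.4 TPM in D4 CT0.0. ACTA2, smooth muscle actin, averaged 67.2 TPM in D8 CT0.0 and 19.4 TPM in D4 CT0.0. MEF2C, a factor of muscle and neurons, had 16.2 and 6.76 TPM in D8 CT0.0 and was called with a log2 change of 2.77 ± 0.81 (SE, limma, adjusted p = 0.0178). Its call was lost without replicate 1 of D8 CT0.0 (2.19, limma adjusted p = 0.163) and without replicate 1 or 2 of D4 CT0.0 (adjusted p = 0.0983 and 0.0593). The coactivator YAP1, at 83.2 TPM in D8 CT0.0 and 85.8 TPM in D4 CT0.0, and its DNA-binding partner TEAD1, at 61.1 TPM in D8 CT0.0 and 63.5 TPM in D4 CT0.0, did not pass.

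In D8 CT3.0 against D8 CT2.0, 4 of these 11 regulators and stretch-response genes fell and 1 rose. Of all genes 12.9% were called, 4.08% higher and 8.79% lower. Scaling the libraries by TMM (a trimmed mean of ratios that sets most genes level) moved the median log2 change of all genes from -0.0926 to 0. It moved the higher share of calls to 47.4%, against 31.7% without it, and left the counts of this list at 1 and 4. ANKRD1 fell by 4.04, averaging 0.0770 TPM in D8 CT3.0 and 16.7 TPM in D8 CT2.0. CCN2 fell by 3.11 and CCN1 fell by 1.22 on the log2 scale. WWTR1, which encodes the YAP relative TAZ, averaged 5.04 TPM in D8 CT3.0 and 25.6 TPM in D8 CT2.0 and fell by 2.14. ACTA2 went the other way, with 64.8 TPM in D8 CT3.0 and 21.6 TPM in D8 CT2.0, a log2 change of 1.54 ± 0.15 (SE). YAP1 and TEAD1 again did not pass, with log2 changes of -0.53 and -0.33. In D8 CT2.0 against D4 CT2.0, where NPPB had 21.6 and 20.0 TPM and was listed at 0 in both D4 libraries, 3 of the 11 rose and 0 fell, where 3.38% of all genes were called (2.32% higher and 1.06% lower). These were ANKRD1, with a log2 change of 4.08, CCN2, with 3.01, and CCN1, with 2.01, while ACTA2 did not pass (0.22).

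Cardiomyocyte markers were partly present in D8 CT0.0, where NPPB was highest, and MEF2C, above, was present too. Of 16 cardiomyocyte markers, 4 were listed at 0 in both D8 CT0.0 libraries: MYH6, the atrial myosin heavy chain, and the cardiac factors NKX2-5, TBX5 and HAND1. The number at 0 in both libraries was also 4 in D4 CT0.0, and it was 6 in D8 CT4.0RA and 3 in D0 ESC, where NPPB was near 0. Those at 1 TPM or more in both libraries were 5 in D8 CT0.0 and 4 in D4 CT0.0. The summed level of the 16 was 73.0 to 82.8 TPM in D8 CT0.0, 34.4 to 35.7 TPM in D4 CT0.0 and 74.9 to 93.7 TPM in D0 ESC, where NPPB was at most 0.172 TPM. It was also 56.2 to 68.6 TPM in D8 CT3.0 and 39.9 to 43.0 TPM in D8 CT2.0, the reverse of NPPB. Of the 8 tested in D8 CT0.0 against D4 CT0.0, 2 rose and 0 fell. ACTC1, cardiac actin, averaged 39.1 TPM in D8 CT0.0 and 3.36 TPM in D4 CT0.0, and TNNI1, slow troponin I, averaged 2.09 TPM in D8 CT0.0 and 0.258 TPM in D4 CT0.0. The call of TNNI1 was lost without replicate 1 or 2 of D8 CT0.0 or replicate 1 of D4 CT0.0 (limma adjusted p = 0.0634 to 0.146). Other cells that such cultures could hold were checked as well. The 15 trophoblast and amnion markers summed to 1.34 to 7.58 TPM in D8 CT0.0 and 1.86 to 6.04 TPM in D4 CT0.0, and 0 of the 7 tested were called by limma, with 0 at an unadjusted p under 0.05. The 16 placode and surface ectoderm markers summed to 213 to 231 TPM in D8 CT0.0 and 140 to 145 TPM in D4 CT0.0, with 1 of 13 higher and 0 lower, and the 13 neural crest markers to 53.6 to 54.9 TPM in D8 CT0.0 and 40.3 to 52.1 TPM in D4 CT0.0, with 1 higher and 0 lower. Their part in the level of NPPB was not tested.

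The NPPB receptor and its cleaving enzymes did not pass the test between the days at CT0.0. Among 15 tested genes of the natriuretic peptide axis, 0 were called by limma in D8 CT0.0 against D4 CT0.0, with 1 at an unadjusted p under 0.05. NPR1, the receptor of both NPPB and NPPA peptides, had 0.268 and 0.636 TPM in D8 CT0.0 and 0.330 and 0.411 TPM in D4 CT0.0, although D8 IWP2 had 3.30 and 4.07 TPM. NPR3, the clearance receptor, was at most 1.34 TPM in any library. CORIN, the protease that cleaves the atrial precursor and can cleave that of NPPB, was at most 3.34 TPM, and FURIN, a general convertase that cleaves the NPPB precursor, had 15.3 and 14.5 TPM in D8 CT0.0 and 11.4 and 13.5 TPM in D4 CT0.0.

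The other natriuretic peptide genes were high where NPPB was not. NPPC, known from cartilage, vessels and brain, had 359 and 403 TPM in D8 CT4.0RA, 180 and 202 TPM in D4 CT4.0RA and 52.1 and 44.6 TPM in D8 CT2.0. It was at most 8.35 TPM in the other 16 groups, and D8 CT2.0 was the group in which NPPB and NPPC were both above 10 TPM. NPPA had 11.6 and 14.8 TPM in D4 CT4.0RA, 3.31 and 2.68 TPM in D8 CT4.0RA and at most 1.20 TPM elsewhere. In D8 CT4.0RA against D8 CT4.0, NPPC rose by 6.34 ± 0.29 on the log2 scale (SE, limma, adjusted p = 2.7e-13) and NPPA by 1.84 ± 0.23 (adjusted p = 1.8e-06). In D8 CT3.0 against D8 CT2.0, NPPC fell by 3.48 and NPR2, the NPPC receptor, fell by 1.28, and they were the only 2 of the 15 called.

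**Figure D3:**
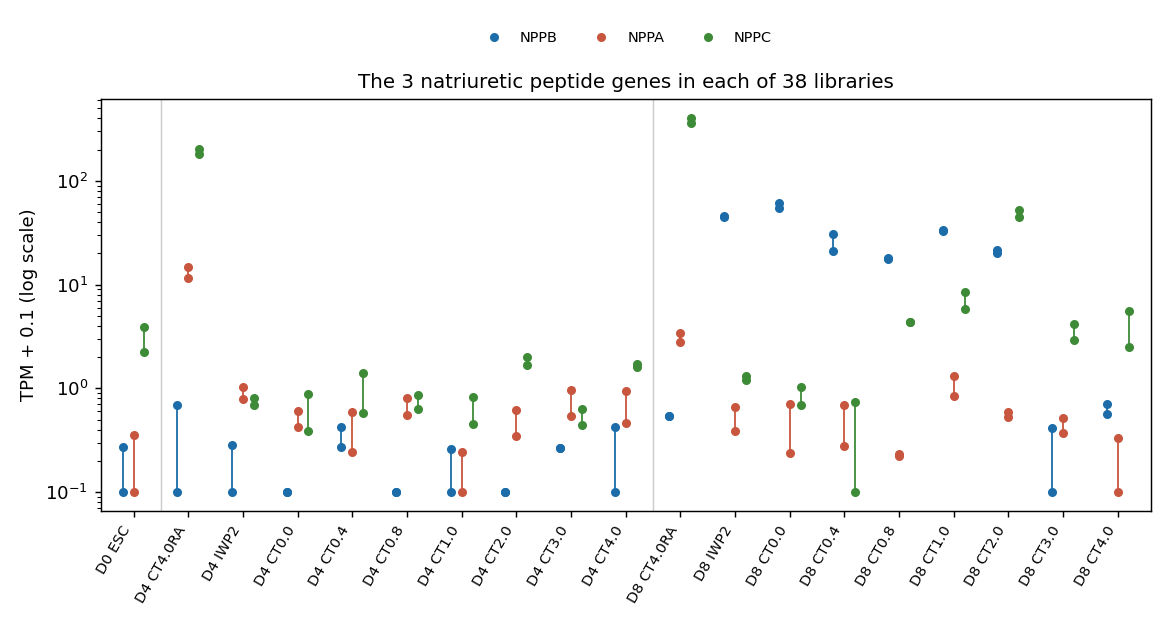
TPM + 0.1 on a log axis of NPPB, NPPA and NPPC in each group; the 2 points joined by a line are the 2 libraries. NPPB stands highest of the 3 in D8 IWP2 to CT1.0, NPPC stands highest in D8 CT2.0 and in both CT4.0RA groups, and NPPA passes 10 TPM only in D4 CT4.0RA.

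NPPA lies beside NPPB, 9119 bases away, and stayed under 1 TPM where NPPB was highest. It averaged 0.374 TPM in D8 CT0.0 and 0.414 TPM in D4 CT0.0. All but the first part of NPPA (chr1:11845709-11848345) overlaps CLCN6 (chr1:11806096-11848079) on the opposite strand. Reads from the overlap may not be told apart, so most of the NPPA gene is open to this. Within 250 kb of NPPB 14 protein-coding genes were tested. In D8 CT0.0 against D4 CT0.0 only DRAXIN, an axon guidance gene, was called, falling by 1.17. In D8 CT3.0 against D8 CT2.0, 2 of the 14 fell and 0 rose, among them FBXO44, a ubiquitin ligase subunit, which fell by 1.37.

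Some other hormone genes also differed between the days at CT0.0. Of 52 other peptide hormone precursors tested in D8 CT0.0 against D4 CT0.0, 4 rose and 1 fell, where 5.78% of all genes were called. NMU, neuromedin U, averaged 32.0 TPM in D8 CT0.0 and 7.54 TPM in D4 CT0.0 and rose by 1.95 ± 0.23 (SE, limma, adjusted p = 2.8e-06). EDN1, endothelin 1, rose by 1.14. TAC3, neurokinin B, fell by 1.23, and its call was lost without replicate 2 of D8 CT0.0 (limma adjusted p = 0.0515). Of 20 genes of prohormone processing and secretory granules, 0 were called by limma, with 12 at an unadjusted p under 0.05. PAM, which amidates peptides, averaged 97.2 TPM in D8 CT0.0 and 155 TPM in D4 CT0.0.

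POMC stood highest in the cultures given retinoic acid, at day 8 and not at day 4. It had 36.1 and 33.8 TPM in D8 CT4.0RA, and both libraries of D8 CT4.0, the same dose of CT without RA, were listed at 0. In D4 CT4.0RA it had 0.121 and 0.166 TPM. The difference between the days was 4.98 on the log2(TPM + 1) scale, and the libraries did not overlap.

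The only other group above 3 TPM of POMC was the starting culture, D0 ESC, with 3.90 and 3.88 TPM. D8 CT2.0 followed with 1.51 and 1.17 TPM, then D8 CT0.0 with 0.905 and 0.527 TPM and D8 CT1.0 with 0.362 and 0.703 TPM, which overlap each other. Every D4 library was at most 0.341 TPM, and 12 of the 38 libraries were listed at 0, among them both of D8 CT3.0. The lowest library of D8 CT4.0RA stood 8.66 times above the highest library of any other group.

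The genes most like POMC were a set of D8 CT4.0RA genes with neuronal and metabolic roles. PYGM, muscle glycogen phosphorylase, had r = 0.882, PRDM13, a factor of dorsal spinal cord and retinal interneurons, 0.878, and SNCG, gamma-synuclein, 0.873. C8orf34 had 0.870 and BRINP2, a neural protein, had 0.838. PRDM13 had 14.8 and 14.7 TPM in D8 CT4.0RA, 0.832 and 0.400 TPM in D4 CT4.0RA and at most 0.0859 TPM elsewhere; D0 ESC had 0.0253 and 0.0415 TPM. SNCG had 142 and 173 TPM in D8 CT4.0RA, 15.0 and 12.2 TPM in D0 ESC and 5.89 and 18.8 TPM in D8 CT2.0, and its D0 ESC and D8 CT2.0 libraries overlap. PYGM had 16.3 and 15.1 TPM in D8 CT4.0RA and 5.74 and 4.20 TPM in D0 ESC. These values of r rest largely on D8 CT4.0RA, since in ranks rho was 0.212 for PYGM and 0.511 for PRDM13.

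**Figure D4:**
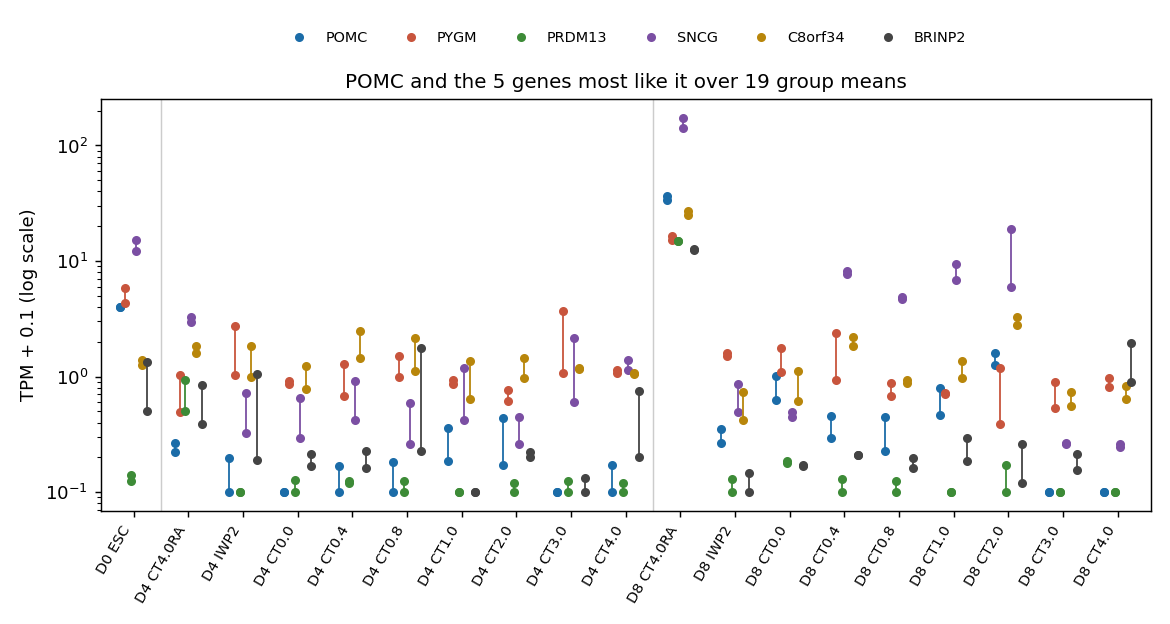
TPM + 0.1 on a log axis of POMC and the 5 genes most like it, in each group; the 2 points joined by a line are the 2 libraries. All 6 genes are highest in D8 CT4.0RA, at 12.4 TPM or more. POMC, PYGM and SNCG have a smaller second level in D0 ESC, which for SNCG overlaps that in D8 CT2.0.

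The receptors of POMC peptides were scarce. MC2R, the adrenocorticotropic hormone receptor, was at most 0.317 TPM, MC4R, the melanocortin receptor of feeding circuits, at most 0.198 TPM, MC5R at most 0.180 TPM, and MC3R was listed at 0 in every library. MC1R, the receptor of pigment cells, had 4.78 and 5.09 TPM in D8 CT4.0RA, 4.25 and 3.02 TPM in D8 CT4.0 and averaged 1.48 TPM in D4 CT4.0RA. In D8 CT4.0RA against D8 CT4.0, limma called 0 of 8 tested genes of the melanocortin axis, with 1 at an unadjusted p under 0.05, where 8.87% of all genes were called (4.54% higher and 4.33% lower). In D8 CT4.0RA against D4 CT4.0RA, MC1R rose by 1.26 ± 0.27 (SE, limma, adjusted p = 0.00136), the only call of the 8, where 5.22% of all genes were called (3.26% higher and 1.96% lower). These comparisons share D8 CT4.0RA.

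The factors known to drive POMC in the pituitary and hypothalamus were mostly low beside it. Of 13 tested regulators, 2 rose and 1 fell in D8 CT4.0RA against D8 CT4.0, where 4.54% of all genes were called higher and 4.33% lower. Against D4 CT4.0RA 1 rose and 0 fell, where 3.26% of all genes were called higher and 1.96% lower. NEUROD1, a factor that activates POMC in corticotrophs, averaged 1.66 TPM in D8 CT4.0RA and 0.134 TPM in D8 CT4.0. NR4A1, an orphan nuclear receptor that activates POMC after corticotropin-releasing hormone, fell by 1.96, with 12.2 TPM in D8 CT4.0RA and 50.8 TPM in D8 CT4.0. CRHR1, the receptor of that hormone, averaged 6.09 TPM in D8 CT4.0RA, 1.22 TPM in D8 CT4.0 and 1.27 TPM in D4 CT4.0RA, with limma adjusted p of 0.0299 and 0.04. It lost both calls whichever library was left out, at limma adjusted p of 0.0705 to 0.165. TBX19, the corticotroph factor of POMC, averaged 1.02 TPM in D8 CT4.0RA and 1.04 TPM in D8 CT4.0, and STAT3, which carries leptin and cytokine signals to POMC, averaged 20.4 TPM in D8 CT4.0RA and 30.6 TPM in D8 CT4.0. Neither passed.

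Pituitary markers were at or near 0 beside POMC. Of 13 pituitary markers, 8 were listed at 0 in both D8 CT4.0RA libraries, among them the factor POU1F1 and the shared hormone subunit CGA. Their sum was 2.95 to 3.05 TPM in D8 CT4.0RA and 2.19 to 2.49 TPM in D8 CT4.0, and limma called 0 of the 5 tested, with 1 at an unadjusted p under 0.05. Hypothalamic factors were nearly as scarce. NKX2-1, which marks the ventral hypothalamus, was listed at 0 in both D8 CT4.0RA libraries, RAX had 0.0388 and 0.0654 TPM and OTP 0.0152 and 0.0584 TPM. The 20 hypothalamic markers summed to 55.3 to 55.7 TPM in D8 CT4.0RA and 17.1 to 18.5 TPM in D8 CT4.0, most of it POU3F2, a broad neural factor that averaged 48.4 TPM in D8 CT4.0RA and 13.3 TPM in D8 CT4.0. Of 11 tested, POU3F2 and FEZF2 rose and FOXD1 fell.

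The convertases that cut POMC in endocrine cells were near the floor. PCSK1 had 0.429 and 0.330 TPM in D8 CT4.0RA, 0.397 and 0.193 TPM in D8 CT4.0 and a mean of 3.46 TPM in D4 CT4.0RA, and against the last of these it fell by 1.69 ± 0.26 (SE, limma, adjusted p = 3.3e-05). PCSK2 had 1.60 and 1.02 TPM in D8 CT4.0RA and 0.0868 and 0.291 TPM in D8 CT4.0. Its difference missed the call at a log2 change of at least 1, and passed it under TMM scaling (1.09, limma adjusted p = 0.00508). Of 20 genes of prohormone processing and granules, 5 rose and 2 fell in D8 CT4.0RA against D8 CT4.0, and 7 and 2 under TMM. Without TMM, 4.54% of all genes were called higher and 4.33% lower.

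The 5 that rose encode granule proteins and an inhibitor of a convertase, all at low levels. SCG3, secretogranin III, averaged 3.94 TPM in D8 CT4.0RA and 0.799 TPM in D8 CT4.0, and CHGA, chromogranin A, averaged 1.77 TPM in D8 CT4.0RA and 0.167 TPM in D8 CT4.0. SCG2, secretogranin II, had a mean of 3.20 TPM in D8 CT4.0RA and was listed at 0 in both D8 CT4.0 libraries. PCSK1N, an inhibitor of PCSK1, and CHGB, chromogranin B, rose by 1.18 and 1.09 on the log2 scale. VGF, a nerve growth factor response gene, fell by 3.08 and the convertase PCSK6 fell by 1.59. Against D4 CT4.0RA, SCG2 and PCSK4 rose and PCSK1 fell, with 17 not passing. PCSK4, a convertase known from germ cells, lost its call without replicate 2 of D4 CT4.0RA (limma adjusted p = 0.0748).

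Neuron and progenitor markers summed higher in D8 CT4.0RA than in D8 CT4.0 and D4 CT4.0RA, but higher still in other D8 groups with little POMC. In D8 CT4.0RA against D8 CT4.0, 6 of 13 neuron markers rose and 1 fell, where 4.54% of all genes were called higher and 4.33% lower. DCX, a microtubule protein of young neurons, averaged 22.4 TPM in D8 CT4.0RA and 0.209 TPM in D8 CT4.0, and NHLH1, a factor of new neurons, averaged 7.06 TPM in D8 CT4.0RA and 0.133 TPM in D8 CT4.0. Of 10 progenitor markers 6 rose and 0 fell, with PAX6 at 326 TPM in D8 CT4.0RA and 1.54 TPM in D8 CT4.0. Against D4 CT4.0RA, 5 of 13 neuron markers rose, led by STMN2 with a log2 change of 4.39 ± 0.20 (SE), and 0 fell. There 3.26% of all genes were called higher and 1.96% lower. Neuron markers summed to 451 to 501 TPM in D8 CT4.0RA, 277 to 287 TPM in D8 CT4.0 and 156 to 167 TPM in D4 CT4.0RA. They summed higher still, to 658 to 709 TPM, in D8 CT2.0, where POMC had 1.51 and 1.17 TPM. In D8 CT1.0, where POMC had 0.362 and 0.703 TPM, they summed to 767 to 995 TPM. Progenitor markers summed to 1096 to 1130 TPM in D8 CT4.0RA, against 1681 to 1721 TPM in D8 CT2.0 and 1709 to 1812 TPM in D8 CT1.0. The part of these cells in the level of POMC was not tested.

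Retinoic acid response genes and WNT targets also differed. Of 16 tested response genes, 11 rose and 3 fell in D8 CT4.0RA against D8 CT4.0, with a median log2 change of 2.39 against 0 over all genes. Of all genes, 4.54% were called higher and 4.33% lower. CYP26A1, which degrades retinoic acid, averaged 239 TPM in D8 CT4.0RA and 0.324 TPM in D8 CT4.0, and RARB, a retinoic acid receptor gene that the ligand induces, averaged 31.1 TPM in D8 CT4.0RA and 0.473 TPM in D8 CT4.0. Of 18 canonical WNT targets 2 rose and 10 fell, with a median of -1.09, and CDX2, a factor of posterior identity, averaged 0.727 TPM in D8 CT4.0RA and 131 TPM in D8 CT4.0. Against D4 CT4.0RA, where POMC was near 0 with RA already present, 4 of the 16 response genes rose and 0 fell. The ribosomal protein share was 38.2% and 39.1% of TPM in D8 CT4.0RA, 29.7% and 29.6% in D8 CT4.0 and 30.6% and 30.7% in D4 CT4.0RA. TMM scaling moved POMC in D8 CT4.0RA to 42.7 TPM, against 35.0 TPM unscaled, and the part of the ribosomal share in that level was not tested further.

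Of 52 other hormone precursors, 6 rose and 7 fell in D8 CT4.0RA against D8 CT4.0, where 4.54% of all genes were called higher and 4.33% lower. Behind NPPC, CCK, cholecystokinin, had a mean of 3.18 TPM in D8 CT4.0RA and was listed at 0 in both D8 CT4.0 libraries. TAC3 fell by 2.39, SCT, secretin, by 2.30 and CALCB, a calcitonin gene-related peptide, by 2.08. The call of SCT was lost without replicate 2 of either group (limma adjusted p = 0.087 without that of D8 CT4.0RA and 0.0546 without that of D8 CT4.0). PENK, another opioid precursor, averaged 2.50 TPM in D8 CT4.0RA and 0.665 TPM in D8 CT4.0 and rose by 1.05, while PDYN averaged 0.0300 TPM in D8 CT4.0RA and 2.49 TPM in D8 CT4.0 and fell by 1.75. Within 250 kb of POMC, limma called 0 of 5 protein-coding genes in either comparison, with 3 (against D8 CT4.0) and 1 (against D4 CT4.0RA) at an unadjusted p under 0.05. The nearest, EFR3B, 1716 bases away, averaged 10.8 TPM in D8 CT4.0RA and 6.46 TPM in D8 CT4.0, a log2 change of 0.66.

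GALP reached the highest level of the 3 genes, and did so in a single condition at day 4. It had 115 and 207 TPM in D4 CT2.0, the widest spread between libraries among the high groups (161 ± 64.9 TPM, SD, n = 2). Doses on either side had 1.30 and 1.16 TPM (D4 CT1.0) and 1.86 and 0.276 TPM (D4 CT3.0). At day 8 the same dose had 1.61 and 5.68 TPM. The differences on the log2(TPM + 1) scale were 6.12 for D4 CT2.0 less D4 CT1.0, -6.35 for D4 CT3.0 less D4 CT2.0 and -5.22 for D8 CT2.0 less D4 CT2.0, and these comparisons share D4 CT2.0.

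Elsewhere GALP was low but rarely absent. Both libraries of D0 ESC and both of D4 CT4.0 were listed at 0, and the other 34 were above 0. D8 CT0.0 had 3.63 and 1.79 TPM, D8 IWP2 2.16 and 3.50, D8 CT0.8 1.98 and 3.76 and D4 CT0.8 3.11 and 0.908 TPM. Below D4 CT2.0 the neighbours in the order of means overlapped, except D8 CT3.0, at 0.114 and 0.128 TPM, which lay above the groups at 0. The lowest library of D4 CT2.0 stood 20.3 times above the highest library of any other group.

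Only a few genes shared this restriction to D4 CT2.0. A gene was counted for a group when both its libraries had at least 5 TPM and at least 5 times the level of every other library. D4 CT2.0 had 5 such genes, 0.0177% of the 28221 tested, and these were GALP, BFSP2, CALB2, CLEC10A and SLC16A11. D8 CT4.0RA had 9, among them POMC, D8 CT0.4 had 41 and D0 ESC had 228, while D8 CT0.0, the top group of NPPB, had 0. The 4 companions of GALP were also its 4 most like genes over the 19 group means, which the restriction itself makes likely. BFSP2, a lens filament protein, had r = 0.923, CLEC10A, a lectin of macrophages and dendritic cells, 0.901, CALB2, the calcium-binding protein calretinin, 0.892, and SLC16A11, a monocarboxylate transporter, 0.885.

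CALB2 had 54.2 and 50.4 TPM in D4 CT2.0 and at most 2.00 TPM in any other library. CLEC10A had 11.4 and 18.5 TPM in D4 CT2.0, was above 0 in 1 other library, a D4 CT3.0 one with 0.0597 TPM, and differed between its replicates in the same direction as GALP. SLC16A11 had 17.4 and 18.6 TPM in D4 CT2.0 and lies at chr17:7041630-7043923, near CLEC10A at chr17:7074537-7080307. BFSP2 had 7.96 and 10.8 TPM in D4 CT2.0. MYBPC1, a myosin-binding protein of slow muscle, came next with r = 0.839 and persisted at day 8, with 68.5 and 77.5 TPM in D4 CT2.0 and 12.4 and 15.2 TPM in D8 CT2.0, which GALP did not.

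**Figure D5:**
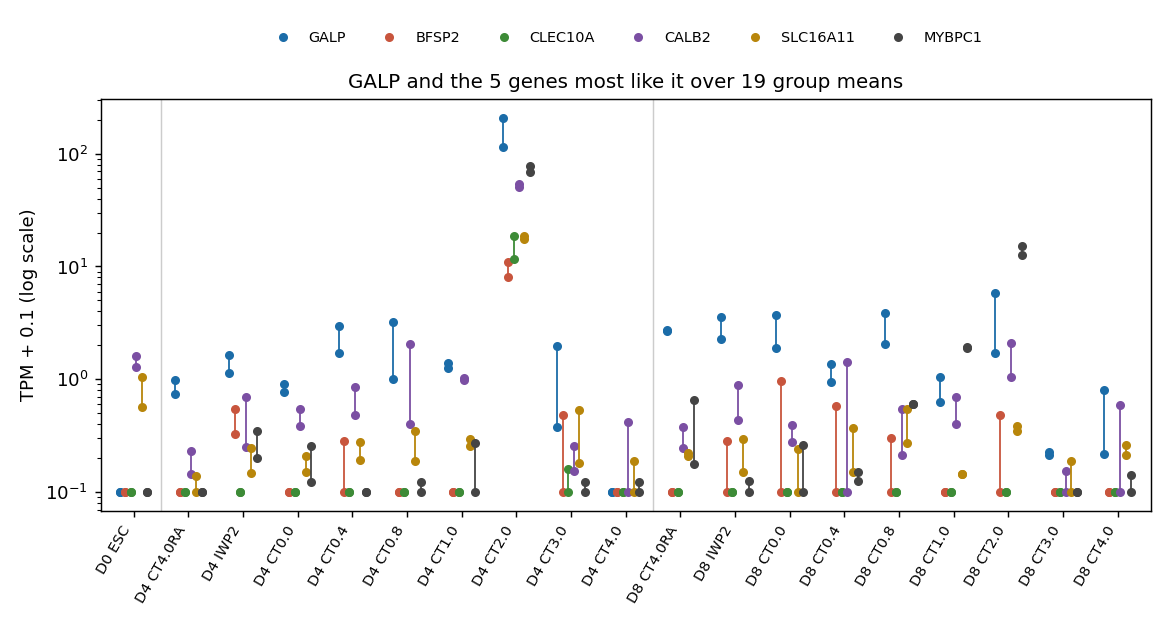
TPM + 0.1 on a log axis of GALP and the 5 genes most like it, in each group; the 2 points joined by a line are the 2 libraries. All 6 genes are highest in D4 CT2.0, from 7.96 TPM for BFSP2 to 207 TPM for GALP, and MYBPC1 alone has a second level above 10 TPM, in D8 CT2.0.

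Galanin and its receptors were near 0 where GALP was high. GAL had 0.319 and 0.658 TPM in D4 CT2.0, 0.595 and 0.660 TPM in D4 CT1.0 and 65.9 and 83.6 TPM in D0 ESC, where GALP was listed at 0. The galanin receptors were scarce, with GALR1 at most 0.959 TPM, GALR2 at most 0.343 TPM and GALR3 at most 1.07 TPM in any library. KISS1R, a kisspeptin receptor related to them, had 1.08 and 3.63 TPM in D4 CT2.0 and 0.249 and 1.26 TPM in D4 CT1.0. SPX, a peptide that binds GALR2 and GALR3, averaged 0.427 TPM in D4 CT2.0 and 0.765 TPM in D4 CT1.0. Of 4 tested genes of the galanin axis, limma called 0 in D4 CT2.0 against D4 CT1.0, where 1.9% of all genes were called (1.08% higher and 0.815% lower), with 0 at an unadjusted p under 0.05. It also called 0 in D4 CT3.0 against D4 CT2.0, where 3.76% were called (2.04% higher and 1.72% lower), and 0 in D8 CT2.0 against D4 CT2.0, where 3.38% were called (2.32% higher and 1.06% lower), with 1 of 4 at an unadjusted p under 0.05 in each.

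Processing genes were compared in the same groups. In D4 CT2.0 against D4 CT1.0, 0 of 20 rose and 1 fell, with 8 at an unadjusted p under 0.05, where 1.08% of all genes were called higher and 0.815% lower. CPE, the carboxypeptidase that trims cut peptides, averaged 10.7 TPM in D4 CT2.0 and 22.9 TPM in D4 CT1.0 and fell by 1.03, a call lost without replicate 1 of D4 CT2.0 (-0.97) or of D4 CT1.0 (-0.91). PAM averaged 145 TPM in D4 CT2.0 and 285 TPM in D4 CT1.0 and did not pass, at a log2 change of -0.97, but passed under TMM scaling (limma adjusted p = 3.81e-06). In D4 CT3.0 against D4 CT2.0, VGF rose by 1.85 and PCSK6 by 1.21, and 0 fell, where 2.04% of all genes were called higher and 1.72% lower. In D8 CT2.0 against D4 CT2.0, 5 rose and 0 fell, where 2.32% of all genes were called higher and 1.06% lower. Among the 5 were PCSK1N, which rose by 2.17, CHGB by 1.47 and CPE by 1.32. These granule genes were higher at day 8 of this dose, when GALP had 1.61 and 5.68 TPM.

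Some other hormone precursors changed at this dose. In D4 CT2.0 against D4 CT1.0, 1 of 52 rose and 3 fell, where 1.9% of all genes were called. APLN, apelin, fell by 1.22 and PTHLH, parathyroid hormone-like hormone, fell by 1.15. ADM, adrenomedullin, rose by 1.35 and APELA, another ligand of the apelin receptor, fell by 1.55. The call of ADM was lost without replicate 1 of either group (limma adjusted p = 0.182 and 0.208), and that of APELA with a pseudocount of 0.1 (0.0536), without replicate 1 of D4 CT2.0 (0.115) or replicate 2 of D4 CT1.0 (0.158). At the next dose, in D4 CT3.0 against D4 CT2.0, 5 rose and 0 fell, led by EDN1 at 2.17. There 2.04% of all genes were called higher and 1.72% lower. STC1, a stanniocalcin, averaged 55.0 TPM in D4 CT3.0 and 16.3 TPM in D4 CT2.0. In D8 CT2.0 against D4 CT2.0, 5 rose and 3 fell, led by NPPC at 4.16, where 2.32% of all genes were called higher and 1.06% lower. SST, somatostatin, had 20.1 and 6.91 TPM in D8 CT2.0 and was listed at 0 in both D4 CT2.0 libraries.

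Markers of the hypothalamus, where GALP is known in rodents, were mixed. NKX2-1 was listed at 0 in both D4 CT2.0 libraries and RAX had 0.0220 and 0.0597 TPM. Of 11 tested hypothalamic markers, 1 rose and 2 fell in D4 CT2.0 against D4 CT1.0. POU3F2 rose by 2.61 and averaged 81.0 TPM in D4 CT2.0 and 12.4 TPM in D4 CT1.0, while the forebrain factors FEZF2 and FEZF1 fell by 3.45 and 2.32. The 20 markers summed to 75.5 to 92.3 TPM in D4 CT2.0 and 36.6 to 38.1 TPM in D4 CT1.0, against 650 to 680 TPM in D4 CT0.0, where GALP had 0.673 and 0.812 TPM.

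WNT and retinoic acid response genes also differed between D4 CT2.0 and the doses on either side. In D4 CT2.0 against D4 CT1.0, 6 of 18 canonical WNT targets rose and 0 fell, where 1.08% of all genes were called higher. SP5 led at a log2 change of 4.25 ± 0.52, then TNFRSF19 at 2.85 ± 0.21 (SE). In D4 CT3.0 against D4 CT2.0, 6 of 18 were called higher and 0 lower, where 2.04% of all genes were called higher. SP5 was called in both steps, though its second call was lost with a pseudocount of 0.1 (limma adjusted p = 0.0707). The median log2 change of the 18 was 0.681 against 0.245 for the step below. The 18 summed to 333 to 345 TPM in D4 CT0.4, 89.5 to 94.4 TPM in D4 CT1.0, 262 to 308 TPM in D4 CT2.0 and 750 to 818 TPM in D4 CT3.0. Of 16 retinoic acid response genes tested in D4 CT2.0 against D4 CT1.0, 7 rose and 2 fell. HOXB1, a hindbrain patterning gene, averaged 86.7 TPM in D4 CT2.0 and 0.111 TPM in D4 CT1.0, and CRABP1, a retinoic acid carrier, averaged 8913 TPM in D4 CT2.0 and 459 TPM in D4 CT1.0. The 17 genes of this list summed to 8124 to 11250 TPM in D4 CT2.0, the highest sum of all groups and most of it CRABP1. They summed to 1158 to 1278 TPM in D4 CT1.0 and 1121 to 1236 TPM in D4 CT3.0. The part of either response in the level of GALP was not tested. In D4 CT3.0 against D4 CT2.0, CRABP1 fell by 6.55 and CYP26A1 fell by 6.95, as 7 of the 16 rose and 5 fell. CRABP1 had a mean of 128 ± 124 TPM (SD, n = 2) in D4 CT3.0, so its libraries there differed widely.

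Progenitor markers differed on both sides of this dose. In D4 CT2.0 against D4 CT1.0, 2 of 10 rose, PAX6 and HES5, a target of Notch, and 0 fell. The call of HES5 was lost with a pseudocount of 0.1 (limma adjusted p = 0.0535). In D4 CT3.0 against D4 CT2.0, 0 rose and 6 fell, where 2.04% of all genes were called higher and 1.72% lower. SOX1 averaged 1.30 TPM in D4 CT3.0 and 80.0 TPM in D4 CT2.0 and fell by 5.18 ± 0.23 (SE, limma, adjusted p = 4.9e-13), and HES5 fell by 4.26. Within 250 kb of GALP, limma called 0 of the 6 protein-coding genes tested in any of the 3 comparisons, with 0, 4 and 0 at an unadjusted p under 0.05 in D4 CT2.0 against D4 CT1.0, D4 CT3.0 against D4 CT2.0 and D8 CT2.0 against D4 CT2.0. ZSCAN5B, 3795 bases away, was listed at 0 in both D4 CT2.0 libraries, and ZNF444, 15127 bases away, averaged 55.5 TPM in D4 CT2.0 and 48.3 TPM in D4 CT1.0.

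The 3 hormone genes seldom stood at 1 TPM or more in the same culture. In 7 of the 19 groups none of the 3 reached 1 TPM in both libraries, in 7 groups 1 did, and in 4 groups 2 did. D8 CT2.0 was the only group in which all 3 did. There NPPB had 21.6 and 20.0 TPM, POMC 1.51 and 1.17 TPM and GALP 1.61 and 5.68 TPM, each below its own highest group. Where POMC was highest, in D8 CT4.0RA, NPPB had 0.437 and 0.438 TPM and GALP 2.66 and 2.58 TPM. Where GALP was highest, in D4 CT2.0, NPPB was listed at 0 in both libraries and POMC had 0.341 and 0.0726 TPM. Where NPPB was highest, in D8 CT0.0, POMC had 0.905 and 0.527 TPM and GALP 3.63 and 1.79 TPM.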

How the data were processed

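H9 RNA was sequenced in 38 poly(A) libraries. Base calling with CASAVA 1.7, quantification with Salmon 0.8.2 and the build hg38 are named in the submitters' processing notes. The labels name 2 sequencers without tying them to libraries. The authors deposited 1 table of gene-level TPM. TPM keeps no read number, so the depth of each library is unknown and no counting interval could be given.

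Libraries were grouped by their labels, and no column was left unused. TPM values were tested as log2(TPM + 1) with limma 3.58.1 (R 4.3.3) over 19 group means, for the 28221 genes that reached 1 TPM in 2 or more libraries, with Benjamini-Hochberg adjustment over all of them. A call needs an adjusted p under 0.05 and a log2 change of at least 1 in size, which understates changes of low genes. The fit was tested on simulated data. Group means, likeness and sequence matches used Python 3.11.15, pandas 2.3.3 and numpy 2.4.6.

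The members and the 18 gene lists were chosen with earlier results of these data known. Partners were taken, per comparison and list, as the 4 largest called changes and the 2 highest genes that did not pass, with receptors, processing enzymes and paralogs whatever their value, and some of the genes so taken are not reported here. Likeness took the 5 highest r, and neighbours all protein-coding genes within 250 kb. Alternatives were a pseudocount of 0.1, no filter, TMM scaling, protein-coding genes only, a replicate block and leaving out each library.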

Additional observations from a re-analysis of the deposited data

How the results depend on the processing

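Testing protein-coding genes only gave 1063 calls in D8 CT0.0 against D4 CT0.0 (1631 over all genes) and 2382 in D8 CT3.0 against D8 CT2.0 (3632 over all genes), since fewer genes were tested. TMM scaling moved NPPB in D8 CT0.0 to 49.1 TPM (58.1 unscaled) and POMC in D8 CT4.0RA to 42.7 TPM (35.0 unscaled). The likeness of ANKRD1 to NPPB (0.986) was 0.944 with a pseudocount of 0.1, 0.596 in ranks and 0.982 over replicate 1 of each group. That of PYGM to POMC (0.882) was 0.212 in ranks, and that of BFSP2 to GALP (0.923) was 0.8 with a pseudocount of 0.1, 0.664 in ranks and 0.874 over replicate 1. The cause of these shifts was not tested.

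Leaving out 1 library at a time gave 1512 to 1685 calls in D8 CT0.0 against D4 CT0.0, 3359 to 3666 in D8 CT3.0 against D8 CT2.0, 2378 to 2499 in D8 CT4.0RA against D8 CT4.0, 1229 to 1617 in D8 CT4.0RA against D4 CT4.0RA, 440 to 641 in D4 CT2.0 against D4 CT1.0, 911 to 1199 in D4 CT3.0 against D4 CT2.0 and 815 to 980 in D8 CT2.0 against D4 CT2.0. The lone library of a group is then assumed to vary like the others. The highest level was 55.1 to 61.1 TPM for NPPB, 33.8 to 36.1 TPM for POMC and 115 to 207 TPM for GALP. Of 261 partner results past the threshold, 42 lost it under at least 1 alternative, and 0 reversed.

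Same-numbered libraries did not deviate together over all genes: deviations correlated at -0.0427 to 0.0372 over 171 pairs of groups. No pairing by number was seen, though a shared effect on few genes could go unseen in such correlations. With the replicate block the 7 comparisons, in the order above, gave 1629, 3645, 2506, 1482, 525, 1059 and 948 calls.

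With 2 libraries a group and no read depth, a level near 0 cannot be told from absence, and the 3 genes rest on 1 cell line.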
